A study of Mus musculus with 28 samples.

Results

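The genes described here are the 10 enzymes of bile acid synthesis and conjugation that the arrays carry under these names: Cyp7a1, Cyp8b1, Cyp27a1, Cyp7b1, Hsd3b7, Akr1d1, Amacr, Hsd17b4, Slc27a5 and Baat. They were taken as every probe whose RefSeq accession in the scanner files belongs to 1 of them, which gave 11 probes of the 55681 distinct probes on the array and 10 of 37074 gene names. Slc27a5 had 2 probes and the other 9 genes had 1 each. The livers came from male B6C3F1 mice, labelled with an age of 42 days, and were fixed in formalin and embedded in paraffin 16 years before RNA was taken from the blocks. In the exposed group, 3 mice drank water with 0.05% phenobarbital over about 4 weeks, and 3 control mice drank plain water. Whole-liver RNA from these 6 mice was copied to cDNA, labelled chemically and measured in 4 sets of 1 slide each, which combine 2 array formats (one-colour, two-colour) with 2 amounts of cDNA (1X, 1.5X). The series asked how RNA from archived blocks performs on this array. No allele, transgene or other treatment is named in the labels for either group.

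Hepatocytes make bile acids from cholesterol. In the classic pathway Cyp7a1 adds the first hydroxyl group and sets the rate, while in the acidic pathway Cyp27a1 and Cyp7b1 act first on the side chain and then on the ring. The ring is then modified by Hsd3b7 and Akr1d1, Cyp8b1 adds the hydroxyl group that turns the product toward cholic acid, and the side chain is shortened in peroxisomes with the help of Amacr and Hsd17b4. Slc27a5 activates the finished acid to its coenzyme A ester and Baat joins it to taurine or glycine. Phenobarbital acts on hepatocytes through the nuclear receptor CAR (Nr1i3), and bile acids returning to the liver repress Cyp7a1 and Cyp8b1 through the receptor Nr1h4 (FXR) and its target Nr0b2 (SHP).

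Promoter sequences were held for 4 of the 10 genes, from RefSeq on GRCm38.p6, a later build than the mm9 (NCBI37) named in the array headers. Each runs from 250 bases before to 50 bases after the annotated start. They are shown for 3 of the enzymes, Cyp8b1 and Hsd3b7, which were measured in every one-colour set, and Akr1d1, which was almost never above background, so that their promoters can be set beside their values. Both strands were searched for the nuclear receptor half-site AGGTCA, for TCAAGG (the core bound by Nr5a2, also called LRH-1), for a pair of half-sites repeated directly with 4 bases between them (DR4, a layout known from CAR elements), for the HNF4 motif CAAAGTCCA and for TATAAA. The last pair of motifs was added after the sequences had been seen. Matches are in capitals. Cyp8b1 is at chr9:121916256-121916555 on the minus strand, Hsd3b7 at chr7:127800359-127800658 on the plus strand and Akr1d1 at chr6:37529923-37530222 on the plus strand.
Cyp8b1: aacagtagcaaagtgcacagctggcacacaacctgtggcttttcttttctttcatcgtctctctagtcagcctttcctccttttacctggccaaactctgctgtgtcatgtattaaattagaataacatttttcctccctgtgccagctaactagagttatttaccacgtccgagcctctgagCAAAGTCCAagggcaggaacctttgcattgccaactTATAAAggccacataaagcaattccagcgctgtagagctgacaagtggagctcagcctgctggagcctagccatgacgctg
Hsd3b7: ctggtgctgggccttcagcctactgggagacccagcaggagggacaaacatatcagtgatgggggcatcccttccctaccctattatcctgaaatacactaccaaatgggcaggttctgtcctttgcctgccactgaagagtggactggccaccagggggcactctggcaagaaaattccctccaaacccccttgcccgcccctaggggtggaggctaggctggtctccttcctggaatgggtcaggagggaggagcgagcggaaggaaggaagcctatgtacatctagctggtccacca
Akr1d1: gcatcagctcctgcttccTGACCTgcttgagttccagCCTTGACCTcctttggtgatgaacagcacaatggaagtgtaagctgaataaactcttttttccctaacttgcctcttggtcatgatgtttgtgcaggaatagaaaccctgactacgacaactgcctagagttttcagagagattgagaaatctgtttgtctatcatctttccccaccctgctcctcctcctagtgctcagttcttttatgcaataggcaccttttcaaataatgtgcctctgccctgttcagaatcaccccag

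In Cyp8b1 the HNF4 motif began at -67 and TATAAA at -31 from the annotated start. Among the 27025 promoters of the table, 0.477% held the HNF4 motif and 14.2% held TATAAA. Akr1d1 held AGGTCA on the opposite strand at -232 and at -210, and TCAAGG on the opposite strand at -213, overlapping the second half-site. AGGTCA was present in 16.0% of all promoters and TCAAGG in 14.5%. The Hsd3b7 window held none of these 5 motifs, nor did that of Cyp27a1, the fourth gene with an entry. The DR4 pair was in 3 of the 27025 promoters and in none of these 4. These matches describe letters in short windows only.

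Liver identity and exposure were checked first. All 6 hepatocyte markers (Alb, Apoa1, Ttr, Fgb, Tat and Serpinc1) were above background and tested in every set. Cyp2b10, the classic CAR target, was well above background on 0 of 6 control and 6 of 6 exposed one-colour arrays. Over both inputs it was at least 23.2-fold higher in the exposed mice. Probes well above background made up 44.2% to 51.9% of those on the one-colour 1X arrays and 28.1% to 38.5% on the 1.5X arrays. In the two-colour 1X set it was 21.9% to 31.5% in Cy3 and 14.8% to 23.1% in Cy5, and in the two-colour 1.5X set 34.4% to 42.8% in Cy3 but 2.96% to 7.40% in Cy5. At this input the two-colour value of a gene is still the mean of both dyes, and for most genes its Cy5 part was at background. Only 2 of the 10 genes could be tested there. In the two-colour 1X set 6 of 8 arrays entered, because on arrays 4 and 8 the description and the channel labels give each exposure opposite dyes. Each two-colour array carried RNA of 1 control and 1 exposed mouse, so that values of those mice share an array. By the descriptions, mice of equal number were together on 4 of the 6 arrays used at 1X and on 5 of the 8 at 1.5X. Levels are given on a log2 scale. A one-colour value is the processed signal relative to the 75th percentile of its array, a two-colour value is a normalized intensity, and values of different probes are not comparable with one another.

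None of the 10 genes passed the test in any set. Over both one-colour inputs, each mouse being the mean of its pair of arrays, 8 of the 10 genes were tested and 0 passed limma at an adjusted p of 0.05, where 0.75% of all 12807 genes did. Unadjusted p-values were under 0.05 for 2 of them, Cyp7a1 and Hsd3b7, against 13.5% of all genes. The 8 changes had a median of -0.18, between -0.76 and 1.15, and 6 were negative. The median over all genes tested was -0.02. The groups did not overlap for 2 genes, Hsd3b7 and Cyp7b1, both lower in the exposed mice. For all genes the groups did not overlap in 19%, and 9.91% were lower in every exposed mouse. Fewer cells of a type and less RNA per cell cannot be told apart in such whole-liver samples.

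**Figure D1:**
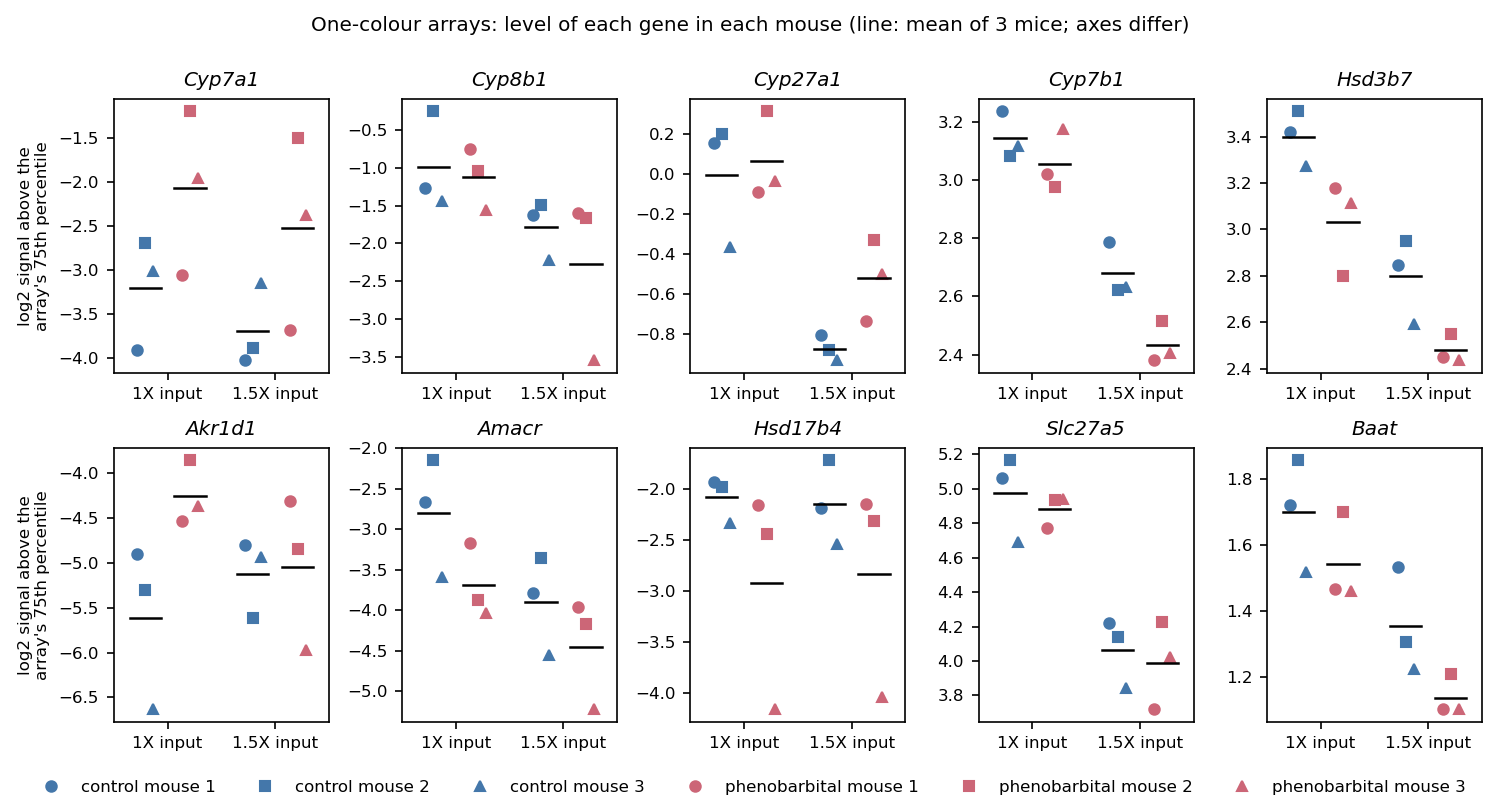
Level of each gene in each mouse on the one-colour arrays, as log2 signal relative to the array's 75th percentile, for control (blue) and phenobarbital (red) mice at 1X and 1.5X cDNA input. Lines are means of 3 mice and each panel has its own axis. Hsd3b7 is lower in every exposed mouse at both inputs, Cyp7a1 spreads widely among the exposed mice, and Hsd17b4 of phenobarbital mouse 3 stands at -4.16 and -4.03. At 1.5X the Hsd17b4 probe was above background on 2 of 3 exposed arrays.

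Cyp7a1, the rate-limiting enzyme of the classic pathway, had the largest positive difference and also the widest spread of the 10 genes. Over both one-colour inputs its level was -3.96, -3.29 and -3.08 in control mice 1, 2 and 3, and -3.37, -1.35 and -2.17 in phenobarbital mice 1, 2 and 3. Phenobarbital mouse 2 was the highest and phenobarbital mouse 1 lay below 2 of the 3 controls, so the groups overlapped. The difference was 1.15 ± 0.49 (SE, n = 3 mice per group), or 2.22-fold, with a 95% interval of 0.01 to 2.29 and an adjusted p of 0.365 in limma. At 1X it was 1.13 ± 0.50 (adjusted p = 0.594 in limma) and at 1.5X 1.17 ± 0.53 (adjusted p = 0.36 in limma). Leaving out phenobarbital mouse 2 brought the difference over both inputs to 0.68, and leaving out phenobarbital mouse 1 brought it to 1.68. All 12 one-colour arrays showed the probe above background, with processed signals of 39.8 to 225 at 1X. On the two-colour 1X arrays it was above background in 3 of 6 Cy3 and 0 of 6 Cy5 channels and was not tested. The values there were 6.23, 6.40 and 6.32 in controls and 6.70, 6.71 and 6.50 in exposed mice, which did not overlap. At two-colour 1.5X the means were 6.59 ± 0.07 (SD, n = 3) in controls and 6.59 ± 0.11 (SD, n = 3) in exposed mice, with no Cy5 channel above background.

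Cyp8b1, the sterol 12-hydroxylase, varied from mouse to mouse without following the exposure. Its one-colour level over both inputs was -1.44, -0.87 and -1.83 in the controls and -1.18, -1.35 and -2.55 in the exposed mice. Phenobarbital mouse 3 was the lowest of all, and the other 2 exposed mice lay within the control range. The difference was -0.31 ± 0.40 (SE), with a 95% interval of -1.24 to 0.62 and an adjusted p of 0.777 in limma. Without phenobarbital mouse 3 it was 0.12. On the two-colour 1X arrays its levels were 7.41, 7.13 and 7.21 in controls and 7.37, 7.37 and 6.88 in exposed mice, again lowest in phenobarbital mouse 3, with a difference of -0.04 ± 0.15 (SE, adjusted p = 0.9 in limma).

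The acidic pathway enzymes lay on opposite sides of 0. Cyp27a1, the mitochondrial sterol 27-hydroxylase, had levels of -0.32, -0.34 and -0.65 in controls and -0.41, -0.01 and -0.27 in exposed mice over both one-colour inputs. Phenobarbital mouse 1 lay within the control range, and the difference was 0.21 ± 0.17 (SE, adjusted p = 0.651 in limma). Leaving out control mouse 3 brought it to 0.10, and leaving out phenobarbital mouse 2 to 0.099. The groups overlapped at 1X (0.07 ± 0.23) and did not at 1.5X, where controls were at -0.81, -0.88 and -0.93 and exposed mice at -0.73, -0.33 and -0.50 (adjusted p = 0.376 in limma). On the two-colour 1X arrays the controls lay between 7.71 and 7.74 and the exposed mice between 7.88 and 7.97. That separation of 0.21 ± 0.07 (SE), with a 95% interval of 0.05 to 0.36, had an adjusted p of 0.116 in limma. The probe was printed in 10 spots per array, whose mean was used.

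Cyp7b1, the oxysterol 7-hydroxylase, had the smallest spread between mice of the 10 genes. As the mean of the one-colour inputs, the controls were at 3.01, 2.85 and 2.87 and the exposed mice at 2.70, 2.75 and 2.79. Every exposed mouse was below every control, with a difference of -0.17 ± 0.13 (SE, 95% interval -0.48 to 0.14, adjusted p = 0.64 in limma). At 1X alone phenobarbital mouse 3, at 3.17, lay within the control range of 3.08 to 3.24. The two-colour 1X levels were 11.05, 11.002 and 10.89 in controls against 10.76, 10.78 and 10.74 in exposed mice. They did not overlap either, with a difference of -0.22 ± 0.07 (SE, 95% interval -0.39 to -0.05, adjusted p = 0.122 in limma).

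Hsd3b7, the enzyme that oxidizes the ring hydroxyl and moves the ring's double bond, was the gene whose groups kept apart in most sets. With both one-colour inputs averaged, the controls were at 3.13, 3.23 and 2.93 and the exposed mice at 2.81, 2.67 and 2.78. All exposed mice were below all controls, with a difference of -0.34 ± 0.15 (SE, 95% interval -0.68 to -0.0043, adjusted p = 0.363 in limma). The groups also kept apart at 1X, where controls were at 3.42, 3.51 and 3.27 and exposed mice at 3.18, 2.80 and 3.12. At 1.5X the controls were at 2.85, 2.95 and 2.59 and the exposed mice at 2.45, 2.55 and 2.44. The differences at the single inputs were -0.37 ± 0.20 (adjusted p = 0.679 in limma) and -0.32 ± 0.16 (adjusted p = 0.406 in limma). On the two-colour 1X arrays the controls were at 10.99, 11.01 and 10.93 and the exposed mice at 10.67, 10.83 and 10.63. That difference of -0.27 ± 0.08 (SE, 95% interval -0.45 to -0.08) had the lowest adjusted p of the 10 enzymes in any set, 0.0955 in limma. The two-colour 1.5X levels overlapped, at 9.64, 9.40 and 9.37 in controls and 9.49, 9.01 and 9.13 in exposed mice, with a difference of -0.26 ± 0.20 (SE, adjusted p = 0.999 in limma). The sets measure the same 6 mice, so they do not repeat the finding in other animals.

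Akr1d1, the 5-beta-reductase that saturates the ring, was at the edge of detection. Its probe was well above background on 0 of 6 control and 2 of 6 exposed one-colour arrays and in no two-colour channel. Processed signals ran from 7.6 to 35.5 at 1X and from 17.2 to 100.3 at 1.5X. It was not tested. No size of difference is given for it.

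The side-chain enzymes were lower on average in the exposed mice, and for Hsd17b4 most of the distance came from a single animal. Hsd17b4, the peroxisomal D-bifunctional protein, was at -2.05, -1.85 and -2.43 in controls over both one-colour inputs and at -2.15, -2.37 and -4.10 in exposed mice. Phenobarbital mouse 3 stood apart at both inputs, and the other 2 exposed mice lay within the control range. The probe was above background on 6 of 6 control but 5 of 6 exposed one-colour arrays, with 2 of 3 exposed at 1.5X. At 1.5X and over both inputs it thus entered through the controls, and its exposed levels are uncertain. The difference was -0.76 ± 0.48 (SE, 95% interval -1.89 to 0.37, adjusted p = 0.556 in limma), and without phenobarbital mouse 3 it was -0.15. In the two-colour 1X set the controls were at 6.94, 7.04 and 6.96 and the exposed mice at 6.83, 6.89 and 6.65, with phenobarbital mouse 3 lowest again. There the groups did not overlap, with a difference of -0.19 ± 0.09 (SE, adjusted p = 0.208 in limma) that was -0.12 without phenobarbital mouse 3. The probe was above background in 6 of 6 control but 3 of 6 exposed channels, so it entered this test through the controls and its exposed levels are uncertain. Amacr, the racemase that converts the side chain's configuration, was tested at one-colour 1X only. Its levels were -2.67, -2.15 and -3.59 in controls and -3.18, -3.87 and -4.04 in exposed mice, and control mouse 3 lay within the exposed range. The difference was -0.89 ± 0.40 (SE, 95% interval -1.81 to 0.02, adjusted p = 0.601 in limma). It was -0.57 without control mouse 2, -1.29 without control mouse 3 and -0.72 without phenobarbital mouse 3. The array of phenobarbital mouse 3 had the smallest share of probes above background at 1.5X (28.1%) but not at 1X (47.9%), and the part of RNA quality in its low values was not tested.

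Neither conjugation enzyme passed the threshold in any set. Slc27a5, the bile acid coenzyme A ligase, gave 4.64, 4.65 and 4.27 in controls and 4.25, 4.58 and 4.48 in exposed mice over both one-colour inputs with its brighter probe. The ranges overlapped, with a difference of -0.08 ± 0.17 (SE, 95% interval -0.49 to 0.32, adjusted p = 0.874 in limma). Its second probe gave 0.04 ± 0.18 (SE, adjusted p = 0.949 in limma) in a fit of every probe, added after the data were seen. In the two-colour 1X set the difference was -0.05 ± 0.08 (SE, 95% interval -0.23 to 0.12, adjusted p = 0.718 in limma). At two-colour 1.5X the controls were at 10.77, 10.89 and 10.62 and the exposed mice at 10.57, 10.55 and 10.38, which did not overlap, with a difference of -0.26 ± 0.17 (SE, adjusted p = 0.999 in limma).

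Baat, the amino acid N-acyltransferase, was at 1.63, 1.58 and 1.37 in controls and 1.28, 1.46 and 1.28 in exposed mice over both one-colour inputs. Only phenobarbital mouse 2 reached the control range, and the difference was -0.19 ± 0.15 (SE, 95% interval -0.53 to 0.15, adjusted p = 0.632 in limma). At one-colour 1.5X alone the groups did not overlap, with controls at 1.53, 1.31 and 1.22 and exposed mice at 1.10, 1.21 and 1.10. On the two-colour 1X arrays the controls were at 9.57, 9.37 and 9.34 and the exposed mice at 9.20, 9.22 and 9.002. These groups did not overlap, with a difference of -0.29 ± 0.10 (SE, 95% interval -0.51 to -0.07, adjusted p = 0.116 in limma). That was the largest change among the 7 enzymes tested in this set.

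**Figure D2:**
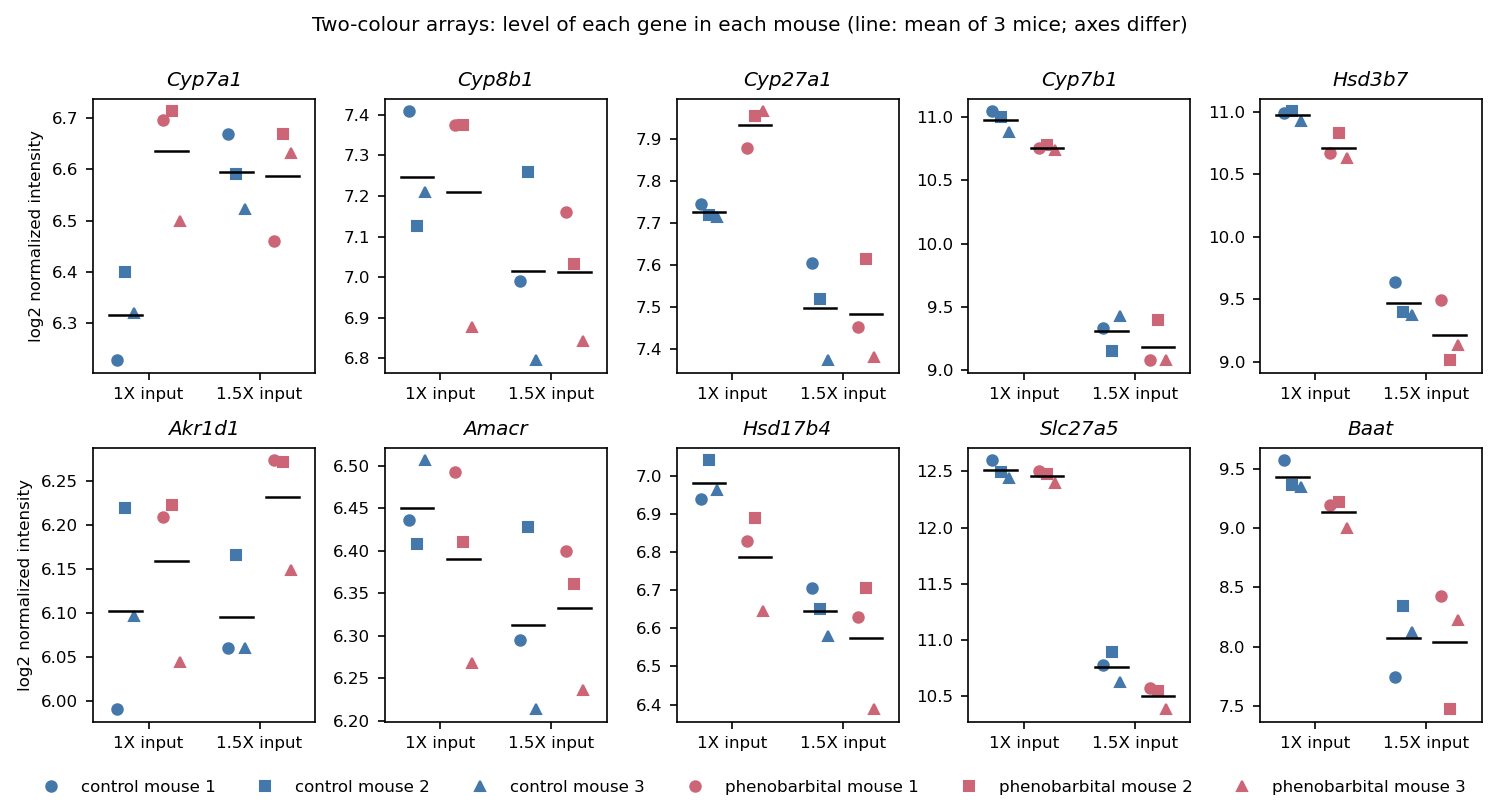
Level of each gene in each mouse on the two-colour arrays, as log2 normalized intensity averaged over both dyes, at 1X and 1.5X cDNA input. Lines are means of 3 mice and each panel has its own axis. At 1X, Cyp27a1 is higher and Cyp7b1, Hsd3b7, Hsd17b4 and Baat are lower in all 3 exposed mice than in any control. At 1.5X the Cy5 channel was at background for most of these genes.

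Set by set, the counts stayed at 0. At one-colour 1X, 0 of 9 tested genes passed the adjusted threshold in limma, against 0.161% of all genes, and 0 had an unadjusted p under 0.05, against 8.57%. At one-colour 1.5X, 0 of 8 passed, against 0.237%, and 0 had an unadjusted p under 0.05, against 14.9%. Of the genes on the two-colour 1X arrays 0 of 7 passed, against 6.29%, while 4 had an unadjusted p under 0.05, against 24.7%. In the two-colour 1.5X set 0 of 2 passed, against 0% of all genes, where 1.74% had an unadjusted p under 0.05 but neither gene of the pathway. Genes whose groups did not overlap numbered 1 of 9 at one-colour 1X, against 14% of all genes, and 4 of 8 at one-colour 1.5X, against 20.8%. In the two-colour sets they numbered 5 of 7 at 1X, against 32.9% (1 higher, as were 16.3% of all genes, and 4 lower, as were 16.6%), and 1 of 2 at 1.5X, against 3.97%. The median change of the tested genes was -0.14 at one-colour 1X, -0.23 at one-colour 1.5X, -0.19 at two-colour 1X and -0.26 at two-colour 1.5X. Over all genes the medians in these sets were 0.01, -0.02, -0.01 and 0.03.

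**Figure D3:**
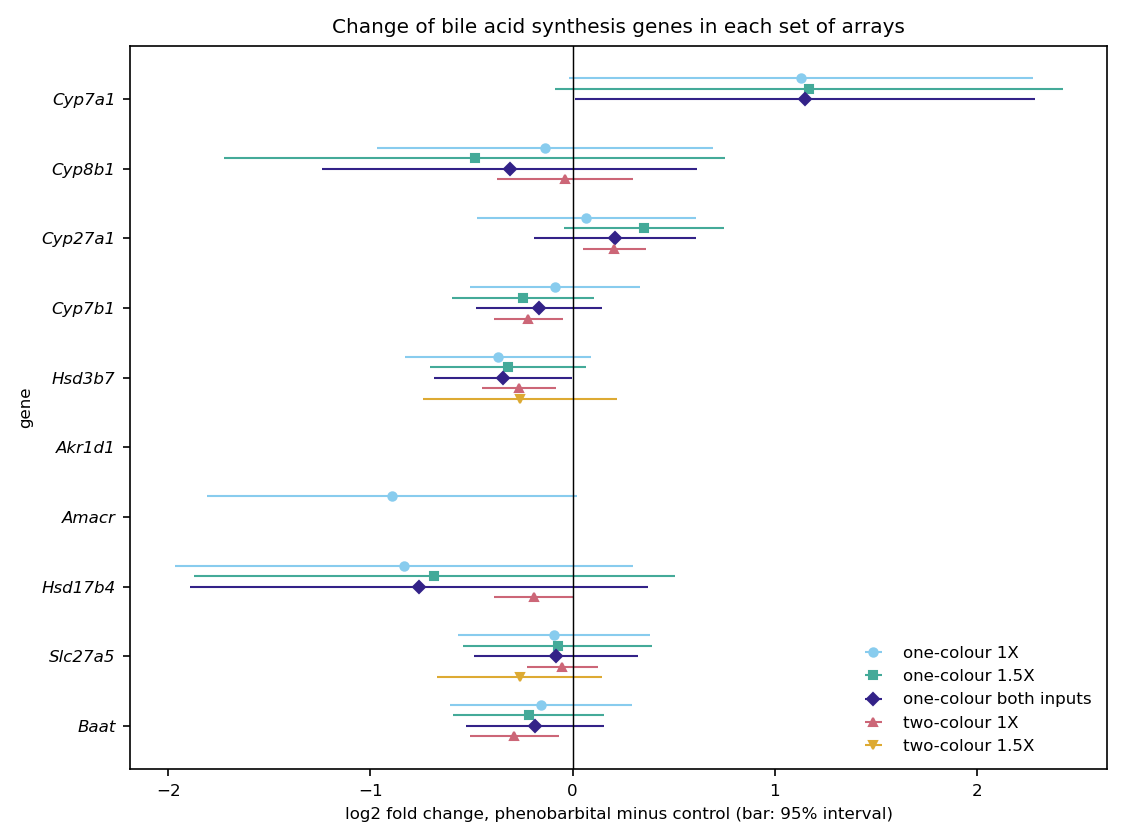
Fitted log2 change, phenobarbital minus control, of each gene, for the 4 sets and for the mean of the one-colour inputs, with 95% intervals over 3 mice per group. The two-colour 1X intervals are the narrowest, and that of Cyp27a1 (0.05 to 0.36) lies above 0 while those of Cyp7b1, Hsd3b7 and Baat lie below it. Akr1d1 has no point because it was not tested.

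The sizes that these sets could show differ. On simulated data the fit over both one-colour inputs found 46% of genes changed by 2-fold and 89% of those changed by 4-fold. The two-colour 1X fit, with the mouse numbers of the descriptions, found 96% and 99%. These folds were added on each set's own log2 scale, to genes drawn from all genes tested. The percentages are averages over such genes and not rates for the more variable Cyp7a1, Hsd17b4 and Cyp8b1. Simulated mice were drawn independently, although mice share arrays in the two-colour sets. The exposure check genes Cyp2b10, Por and Cyp2c55 had a median change of 1.74 at two-colour 1X against 3.61 at one-colour 1X. The same fold on both scales thus need not be the same change in RNA, and the percentages of the formats are not comparable. At 2-fold and 4-fold the one-colour 1X fit found 9% and 67%, the one-colour 1.5X fit 34% and 75%, and the two-colour 1.5X fit 60% and 80%. The test between inputs found 17% and 75%, and that between formats 50% and 93%. The exposure effect of these enzymes did not differ past the threshold between cDNA inputs (8 tested) or between formats (7 tested). The test of the difference between one-colour inputs called 0 of all 12889 genes in limma (0%, with 5.66% at an unadjusted p under 0.05), and that between formats at 1X called 0.0242% of genes and 0 of these, with 4.78% of all genes and 0 of these at an unadjusted p under 0.05. Among the 7 tested, the largest gap between formats was that of Hsd17b4, 0.64 with a 95% interval of -0.31 to 1.60. Cyp7a1 and Amacr, too dim to be tested at two-colour 1X, are not among them.

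The genes differed in how far mice of a group stood apart, and some were quiet while others were variable. On the one-colour arrays the standard deviation between mice of a group was 0.79 for Cyp7a1, 0.78 for Hsd17b4, 0.63 for Cyp8b1 and 0.60 for Amacr. The first 3 of these are above the level of 97.7%, 97.6% and 95.4% of the genes tested. Between the arrays of a mouse the same genes had 0.28, 0.14, 0.41 and 0.24. Cyp7b1, Hsd3b7 and Baat had 0.07, 0.12 and 0.12 between mice and 0.09, 0.12 and 0.09 between arrays. The median gene had 0.23 between mice and 0.22 between arrays. The spread between mice is that of means over the arrays of a mouse, and the spread between arrays is that of single arrays. The sizes of these measures are therefore not directly comparable. The variable genes are also those with dim probes, whose processed signals at 1X were at most 429, while those of the 3 quiet ones were at least 1182. The part of brightness in the spread was not tested.

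**Figure D4:**
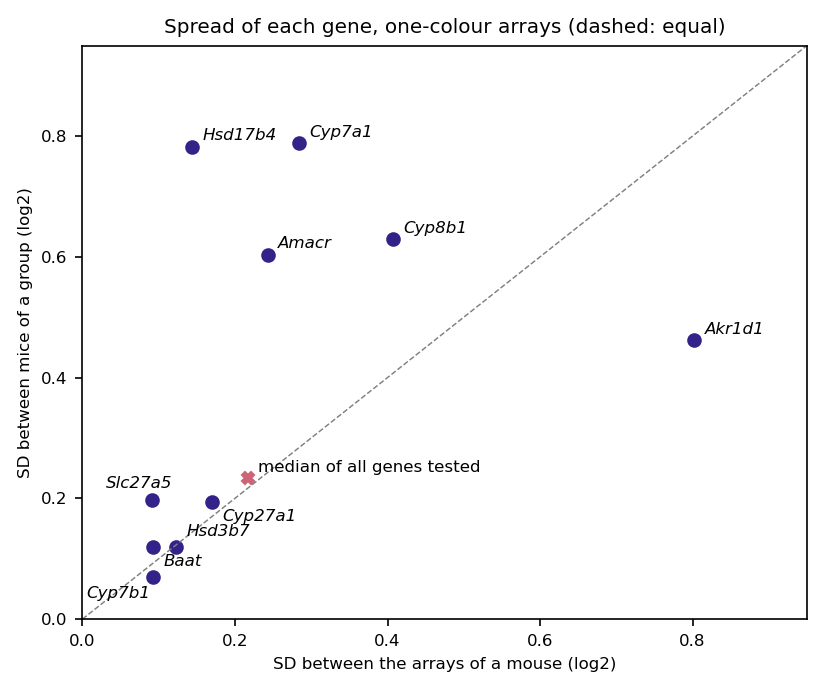
Standard deviation between mice of a group (vertical) against that between the arrays of a mouse (horizontal), in log2 units, for the 10 genes (points) and the median of all genes tested (cross) on the one-colour arrays. Hsd17b4 and Cyp7a1 lie far above the line of equal spread, and Akr1d1 (0.46 between mice, 0.80 between arrays) lies below it. Vertical values are for means over the arrays of a mouse and horizontal values for single arrays.

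Other enzymes of the pathway were looked at as a list of 13 genes. Over both one-colour inputs 11 were tested and 0 passed in limma, with a median change of -0.16. An unadjusted p under 0.05 was found for 1, against 13.5% of all genes. In the two-colour 1X set 10 were tested and 1 passed as lower, against 2.92% of all genes. That gene, Cyp46a1, the cholesterol 24-hydroxylase, fell by 0.49 ± 0.08 (SE, adjusted p = 0.0123 in limma). Its levels there were 7.31, 7.28 and 7.34 in controls and 6.82, 6.94 and 6.70 in exposed mice. They did not overlap, nor did those of 32.9% of all genes. Above background were 6 of 6 control but 4 of 6 exposed channels, so that Cyp46a1 entered the test through the controls and its exposed levels are uncertain. Over both one-colour inputs its difference was -1.11 ± 0.32 (SE, adjusted p = 0.196 in limma), with 6 of 6 control but 5 of 6 exposed arrays above background. Scp2, a sterol carrier and peroxisomal thiolase, differed by -0.44 ± 0.11 (SE, adjusted p = 0.0587 in limma) at two-colour 1X and by -0.33 ± 0.16 over both one-colour inputs. Sult2a8, a bile acid sulfotransferase, differed by -0.26 ± 0.09 (SE, adjusted p = 0.127 in limma) at two-colour 1X.

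Transporters of bile acids and sterols gave 3 increases in the two-colour 1X set among 10 tested of 14 listed, and no decrease. In that set 3.37% of all genes rose and 2.92% fell. Abcc2, an export pump of the canalicular membrane, was at 8.10, 8.18 and 8.27 in controls and 9.06, 8.98 and 8.86 in exposed mice, and rose by 0.78 ± 0.08 (SE, adjusted p = 0.00221 in limma). Abcc3, an export pump of the sinusoidal membrane, was at 9.93, 10.01 and 9.68 in controls and 10.70, 10.89 and 10.48 in exposed mice, and rose by 0.82 ± 0.13 (SE, adjusted p = 0.00969 in limma). Slco1a4, an uptake carrier, was at 6.72, 6.58 and 6.58 in controls and 7.21, 7.24 and 6.98 in exposed mice, and rose by 0.52 ± 0.09 (SE, adjusted p = 0.0158 in limma). Its probe was above background for 3 of 6 control and 6 of 6 exposed channels, so that it entered the test through the exposed group and its control levels are uncertain. The groups did not overlap for these 3, nor for 32.9% of all genes, and the 3 are named because they passed in this set. On the one-colour arrays of the same 6 mice their differences over both inputs were 1.04 ± 0.18, 1.07 ± 0.18 and 1.75 ± 0.43. The groups did not overlap there either, nor did they for 19% of all genes. Slco1a4 was above background on 5 of 6 control and 6 of 6 exposed one-colour arrays, so it again entered through the exposed group. For Abcc2, Abcc3 and Slco1a4 the adjusted p over both inputs was 0.0569, 0.0510 and 0.140 in limma, so 0 of 10 passed. An unadjusted p under 0.05 was found for 3, against 13.5% of all genes.

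Regulators of the pathway gave 2 increases and 1 decrease among 16 tested of 18 in the two-colour 1X set. Of all genes there 3.37% rose and 2.92% fell. Nr0b2 (SHP), the repressor of Cyp7a1 transcription that FXR induces, was at 7.89, 7.58 and 7.61 in controls and 8.27, 8.30 and 8.12 in exposed mice, and rose by 0.54 ± 0.10 (SE, adjusted p = 0.0223 in limma). Nr1i2 (PXR), a xenobiotic receptor related to CAR, was at 8.58, 8.48 and 8.64 in controls and 9.25, 9.04 and 9.41 in exposed mice, and rose by 0.67 ± 0.10 (SE, adjusted p = 0.00969 in limma). Ppargc1a, a transcriptional coactivator, fell by 0.46 ± 0.11 (SE, adjusted p = 0.0497 in limma). It too entered through the controls, with 6 of 6 control but 4 of 6 exposed channels above background. Over both one-colour inputs the differences were 0.91 ± 0.20 for Nr0b2, 0.71 ± 0.21 for Nr1i2 and -0.75 ± 0.24 for Ppargc1a, with adjusted p of 0.109, 0.209 and 0.243 in limma, and 0 of 17 regulators passed. Nr1d1 (REV-ERB alpha), a clock repressor, differed by 1.48 ± 0.37 (SE, adjusted p = 0.15 in limma) over both inputs. Its probe was above background on 5 of 6 control and 6 of 6 exposed one-colour arrays. It thus entered through the exposed group, and its control levels are uncertain.

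**Figure D5:**
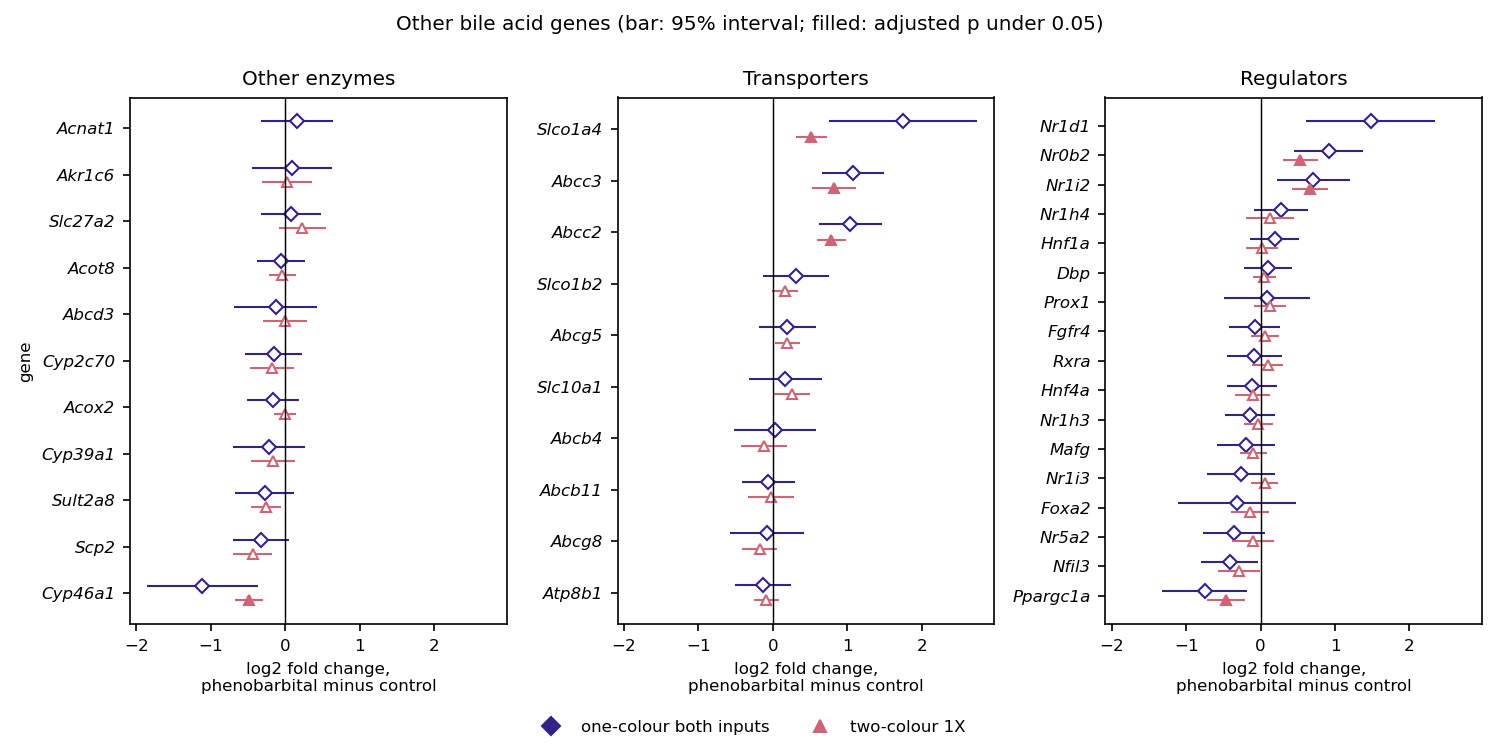
Fitted log2 change, phenobarbital minus control, of the other bile acid enzymes, the transporters and the regulators, over both one-colour inputs (diamonds) and on the two-colour 1X arrays (triangles), with 95% intervals. Filled symbols passed an adjusted p of 0.05, which only two-colour 1X values did: Abcc2, Abcc3, Slco1a4, Nr0b2 and Nr1i2 higher, and Cyp46a1 and Ppargc1a lower.

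These 7 calls rest on the two-colour 1X set and on the mouse numbers of its descriptions. On 4 of its arrays the source names give other mouse numbers, and with those only Abcc2 kept an adjusted p under 0.05 in limma, the other 6 standing at 0.0580 to 0.164 with the same differences. Leaving out any 1 mouse kept Abcc2, Abcc3 and Nr1i2 past the threshold. Slco1a4 and Nr0b2 lost it when control mouse 2, control mouse 3, phenobarbital mouse 1 or phenobarbital mouse 2 was left out, with adjusted p of 0.0678 to 0.0761 and 0.0821 to 0.0955 in limma. Cyp46a1 lost it when control mouse 3 or phenobarbital mouse 1 was left out (0.0640 and 0.0545), and Ppargc1a without any mouse other than phenobarbital mouse 1 (0.0825 to 0.152).

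Markers of cell types that whole liver could hold were read the same way. The 6 hepatocyte markers had a median change of -0.18 over both one-colour inputs, all 6 negative and 0 passing in limma. In the two-colour 1X set the median was -0.28, with 5 negative and 1 positive. There 2 of 6 passed as lower in limma, against 2.92% of all genes. They were Ttr (-0.61 ± 0.09) and Alb (-0.39 ± 0.07), named here after their values were seen. The mean level of the 6 markers was 5.03 to 5.33 in controls and 4.90 to 5.20 in exposed mice on the one-colour scale. At two-colour 1X it was 13.21 to 13.30 against 12.92 to 13.03, and these means did not overlap. Taken singly, 4 of the 6 markers did not overlap in that set, against 32.9% of all genes. The medians of the bile acid enzymes were thus near those of the hepatocyte markers, and the part of hepatocyte content in the enzymes' values was not tested. The 8 periportal and the 6 tested pericentral markers had medians of -0.24 and -0.37 over both inputs, with 0 passing. At two-colour 1X their medians were -0.19 and -0.21, again with 0 passing in limma, and the groups did not overlap for 5 of 8 periportal and 5 of 5 tested pericentral markers, against 32.9% of all genes. Directions were mixed, since 1 of the 5 pericentral markers was higher (by 0.52) and 4 were lower. Of the 8 periportal changes 1 was positive and 7 were negative. Of all genes 16.3% were higher and 16.6% lower without overlap. Of these lists 3 periportal and 5 pericentral markers had an unadjusted p under 0.05 there, against 24.7% of all genes. The part of zonation in the enzymes' values was not tested. Among other cell types 0 markers passed over both inputs. The 6 pancreas markers had a median of -0.98, with mean levels of 1.95 to 4.72 in controls and 1.60 to 3.88 in exposed mice. S100a9, the only neutrophil marker tested of 3, lay between -5.95 and -4.41 in controls and between -3.59 and -1.43 in exposed mice (adjusted p = 0.232 in limma). It was above background on 2 of 6 control and 6 of 6 exposed arrays and entered through the latter, while S100a8 and Mpo were well above background on no one-colour array. The part of these cells in the enzymes' values was not tested.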

How the data were processed

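Agilent arrays of 6 mouse livers were used as scanned, 26 of 28 arrays in 4 sets. Per the file headers, the authors ran Agilent Feature Extraction 11.0.1.1; its deposited tables give an intensity per spot (processed and median signals), a deposited log10 ratio of Cy5 over Cy3 and deposited flags (unit: other) of 0 or 1. The deposited series matrix equals these signals and ratios, with the sign of the ratio turned on 8 two-colour arrays. On the 7 of these used here the turn gives phenobarbital over control. Arrays have no count depth, and the number of mice limits the precision.

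One-colour values were log2 processed signals minus the array's 75th percentile over those probes that every array of a set showed well above background. For two-colour arrays, values came from median signals with normexp (offset 50), loess (span 0.3) and Aquantile, averaged over both dyes of a mouse. Outlier spots were left out, replicate spots averaged, and 1 probe per gene used (the brightest on average over the one-colour arrays). A probe was called well above background where over 50% of its unflagged spots were. Genes entered a test if every array of the control or of the exposed group showed the probe well above background. Accessions were named through RefSeq's GRCm38.p6 table, which gave 27235 probes a symbol.

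The mouse was the replicate, so p-values measure the spread between these mice. Tests were made with lmFit and eBayes of limma 3.58.1 (R 4.3.3). P-values were adjusted after Benjamini and Hochberg over all genes tested, at a threshold of 0.05. Differences between inputs and formats were fitted on differences within mice. Input, slide and scan session cannot be told apart within a format. Between the formats at 1X, format, slide, scan session and normalization cannot be told apart either. A fold against a group not well above background is a bound. The fits were tested on simulated data, 200 genes being changed by a known amount.

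Named genes were all 10 enzymes and, of the lists of other enzymes, transporters and regulators, each gene passing in a set plus up to 3 per list with the smallest p over both one-colour inputs. Further lists marked zonation, hepatocytes, cholangiocytes, macrophages, endothelium, stellate cells, pancreas, lymphocytes and neutrophils. Members and lists were chosen with earlier results of these data known. Alternatives covered scaling, background correction, dim probes, probe choice, mouse numbers, single dyes, slide row, the deposited matrix and leaving out each mouse. Figures used matplotlib 3.10.9 in Python 3.11.15.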

Additional observations from a re-analysis of the deposited data

How the results depend on the processing

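None of the 10 enzymes passed the threshold in any set under any alternative run. The smallest adjusted p of an enzyme over these in limma was 0.0950 over both one-colour inputs and 0.0947 at one-colour 1.5X (each without phenobarbital mouse 1), 0.288 at one-colour 1X and 0.0722 at two-colour 1X. The median change over both one-colour inputs was -0.39 without scaling between arrays, where that of all genes was -0.23. Normexp with quantile normalization brought Cyp7a1 to 0.72 and Hsd17b4 to -0.46 over both inputs and Amacr to -0.44 at 1X. Signs of uncalled differences turned in a few cases. Without scaling, Cyp27a1 stood at -0.0061 over both inputs and -0.23 at 1X, and it was -0.0082 at 1X with the slide row as a block. Slc27a5 was 0.047 at 1X with the mean of its probes. Leaving out each mouse moved Cyp8b1 from -0.57 to 0.12 over both inputs, -0.36 to 0.23 at 1X, -0.82 to 0.15 at 1.5X and -0.12 to 0.13 at two-colour 1X. For Slc27a5 the ranges were -0.21 to 0.012, -0.23 to 0.0043 and -0.19 to 0.061 in the one-colour fits, and for Cyp27a1 at 1X -0.11 to 0.17. The cause was not tested.

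Counts over all genes depended on the setting. They were 16 to 106 without 1 mouse and 28 to 145 under the others over both inputs (96 as reported), 5 to 18 and 3 to 30 at 1X (30), 11 to 139 and 4 to 160 at 1.5X (31), and 214 to 629 and 100 to 690 at two-colour 1X (519). The lowest of the last was with source-name mice. Of the 7 pathway calls at two-colour 1X, Abcc2 alone kept its call with Cy3 alone. Cyp46a1 and Ppargc1a lost theirs with loess without Aquantile, Ppargc1a with the mean of its probes, and Cyp46a1 with the deposited processed signals (-1.32, adjusted p = 0.0613 in limma).

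The labels give mice of equal number no shared origin, and on the one-colour arrays the correlations of their deviations were 0.05, -0.12 and 0.28, so the pairing was not used. Equal numbers do share most two-colour arrays. With the number as a replicate block, 0 enzymes passed in each set, and all-gene counts were 37, 3, 4 and 690 in the order above, with the 7 pathway calls at two-colour 1X kept. Low signal in the two-colour 1.5X Cy5 channel limits that set to 1662 genes tested.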

Other observations

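The two-colour 1X arrays 4 and 8, whose dyes the labels leave unsettled, enter no comparison. Their deposited log2 ratios of Cy5 over Cy3 were 1.76 on array 4 and -1.01 on array 8 for Cyp7a1, and -0.31 and 0.08 for Hsd3b7. For Cyp8b1 they were -0.08 and -1.03, for Cyp27a1 0.51 and -0.17, for Cyp7b1 -0.26 and 0.24, for Baat -0.17 and 0.21 and for Hsd17b4 -0.43 and -0.71. The CAR targets Cyp2b10 and Cyp2c55 gave 3.68 and 3.77 on array 4 and -2.76 and -3.77 on array 8.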
